A study of Anguilla anguilla with 3 samples.

Results

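The nuclear sex steroid receptors of the eel ovary are described here by the 8 rows of the gene table whose protein name is prgr, andr, esr1 or esr2, out of 45974 predicted genes. They comprise 1 row for the progesterone receptor prgr, 2 rows for the androgen receptor andr, 2 rows for estrogen receptor alpha, esr1, and 3 rows for estrogen receptor beta, esr2. Rows were taken by name, with earlier results of these data known, and each copy was kept apart by its gene identifier. Ovary RNA came from 3 European eels (Anguilla anguilla), 1 per stage: a yellow eel (the feeding and growing phase of the life cycle), a silver eel still before puberty (the form that leaves for the sea), and a matured eel that had already spawned. The silver eel was taken from Lake Grevelingen in December of another year, and the yellow and matured eels came from Lake Veerse in April and May. Stage, lake and season therefore cannot be told apart in any comparison with the silver eel. The way the matured eel was brought to maturity is not stated in the labels used here. Tissue of the anterior, middle and posterior gonad was pooled within each eel before an Illumina mRNA library was made, so each library describes a single animal.

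These receptors are transcription factors that wait in the cell with chaperone proteins, bind a steroid, pair up and then act on target genes together with coactivators and corepressors. In fish, estrogens act through esr1 and esr2 and are best known for switching on yolk precursor synthesis in the liver, while androgens acting through andr promote the growth of young oocytes in eels. The nuclear progestin receptor sits in follicle cells and is needed for ovulation in zebrafish and medaka, whereas the resumption of meiosis in the egg is driven mainly through membrane progestin receptors. Teleosts carry duplicated copies of several of these receptor genes.

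With 1 eel per stage no difference between stages could be tested, and no p-value was computed. Library totals were 27811764 reads (yellow), 41426808 reads (silver) and 30137882 reads (matured). Levels are given as CPM, reads counted per library size after TMM scaling, and comparisons between different receptors use RPKM, reads per length of transcript and library total. Folds carry 95% intervals for counting error only, and they say nothing of the spread between eels. These intervals treat each read as independent, which reads amplified by PCR are not, so they can be too narrow. Egg coat and other oocyte transcripts, 23 rows in all, summed to 58002 CPM in yellow, 46730 CPM in silver and 38994 CPM in matured ovary, so the defining oocyte transcripts were abundant in all 3.

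The rows differed in how complete they are. Long predicted transcripts, between 3308 bases (esr2 g9961) and 7313 bases (andr g5987), made up 6 of them, and the other two are short fragments of 356 bases (esr1 g19754) and 205 bases (esr2 g43197). The fragments held between 7 and 15 reads in each library, so their values are the least certain, and neither reached 1 CPM anywhere. In all 8 rows the corrected reads equalled the uniquely aligned reads in each library, so no read of these receptors was shared with another gene. The most similar protein in the deposited table was the chicken receptor for prgr, the spotted hyena receptor for both andr rows, the rainbow trout receptor for esr1 g23190 and esr2 g9961, the Xenopus receptor for esr1 g19754 and the Japanese eel receptor for esr2 g6324 and g43197. Whether the rows of a name are paralogs or parts of a split prediction cannot be told from the names.

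Over all 8 rows the receptors summed to 28.3 CPM in yellow, 35.7 CPM in silver and 80.2 CPM in matured ovary. Set against the silver ovary, the largest folds in the matured ovary were those of prgr and of 1 copy each of andr and esr2. That esr2 copy, g6324, was also 2.55-fold higher in silver than in yellow ovary. At least 2-fold higher in matured than in silver ovary were prgr (29.6-fold, 95% interval 18.3 to 51.3), andr g5987 (3.60-fold, 3.17 to 4.10) and esr2 g6324 (2.55-fold, 2.14 to 3.04). In contrast, the most abundant receptor row of the yellow and silver libraries, esr2 g9961, had 10.3 CPM in matured and 12.4 CPM in silver ovary. In bulk tissue, more cells of a type and more RNA per cell cannot be told apart.

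**Figure D1:**
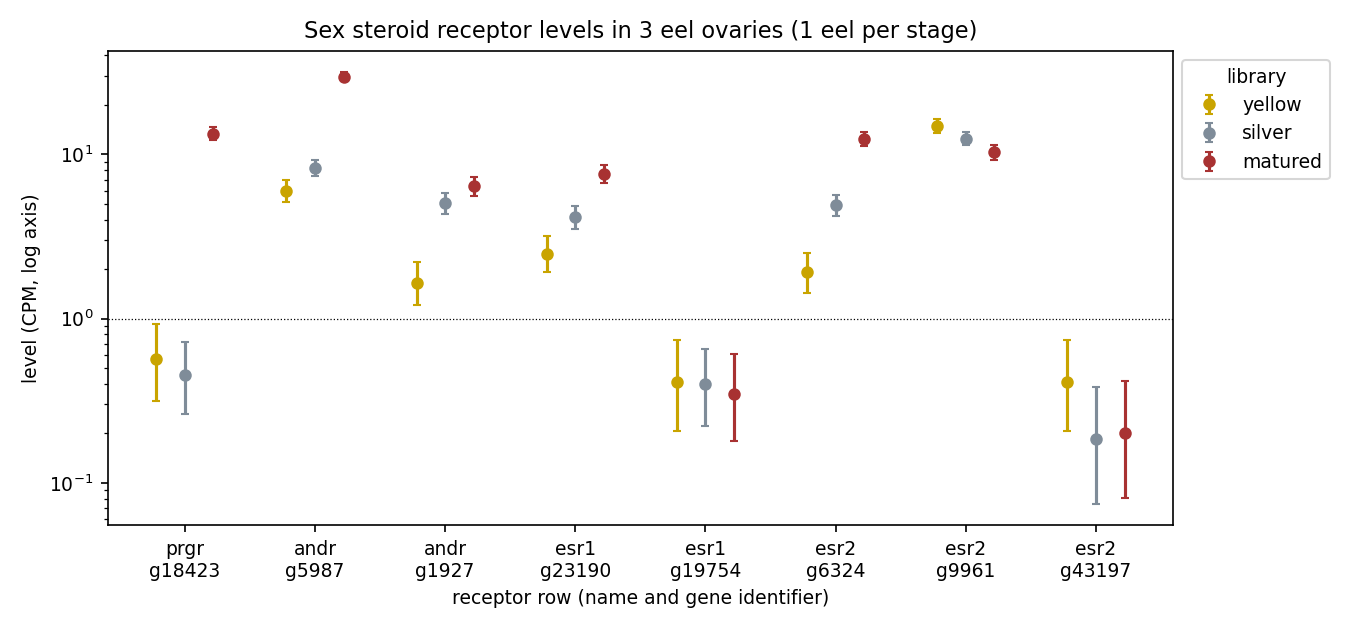
Level in CPM (log axis) of each of the 8 receptor rows in the yellow, silver and matured libraries, 1 eel each, with bars for the 95% Poisson interval of the count; the dotted line marks 1 CPM. The prgr row lies at 0.564 and 0.451 CPM in the yellow and silver libraries and at 13.4 CPM in the matured library, while esr2 g9961 lies between 10.3 and 14.8 CPM in all 3.

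The progesterone receptor prgr (g18423), which mediates the genomic action of progestins, had few reads in the yellow and silver libraries and was plain in the matured one. It had 15 reads in yellow, 17 reads in silver and 462 reads in matured ovary, which is 0.564, 0.451 and 13.4 CPM. The intervals of the yellow (0.316 to 0.930 CPM) and silver levels (0.263 to 0.722 CPM) overlapped, and that of the matured level (12.2 to 14.6 CPM) lay far above both. Matured ovary was 23.7-fold higher than yellow ovary (14.2 to 42.7), whereas silver and yellow ovary could not be told apart (fold 0.799, 0.376 to 1.72). Genes were also ranked by a shrunken ratio, with 1 CPM put on top of each level. By this rank only 0.21% of the genes tested stood above prgr in matured versus silver, and 0.497% in matured versus yellow. Genes with very few reads in the earlier library can have a larger unshrunken fold and still rank below prgr. The prgr row itself was tested only through its matured level. Per length, prgr ranked last of the 8 rows in the yellow and silver libraries, at 0.128 and 0.0970 RPKM. In the matured library it ranked second, at 3.63 RPKM. Against esr2 g9961 in the same library, the ratio of prgr was 35.8 times as large in matured as in silver ovary (21.6 to 63.2), and against andr g5987 8.22 times (4.98 to 14.5), so the difference did not hang on the scaling between libraries. Of the genes with reads, 8.84% had a lower RPKM than prgr in yellow, 8.01% in silver and 44.7% in matured ovary. In the authors' deposited table, from DESeq with no replicates, prgr was 28.6-fold higher in matured than in silver ovary with p = 0.000713 and an adjusted p of 0.203, and 23.2-fold higher than in yellow ovary with p = 0.00226 and an adjusted p of 0.310. The adjusted p was 1 in the authors' deposited table for the other 22 of the 24 pairings of a receptor row with a comparison, again from DESeq.

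The androgen receptor was present in 2 long copies that differed in when they were higher. The copy g5987 had 5.98 CPM in yellow, 8.22 CPM in silver and 29.6 CPM in matured ovary. The last is the highest CPM of any receptor row, but CPM takes no account of length and this row is the longest. It was 1.38-fold higher in silver than in yellow ovary (1.13 to 1.68), which is under the 2-fold mark. The second copy, g1927, had 1.65 CPM in yellow, 5.01 CPM in silver and 6.39 CPM in matured ovary. For g1927 the larger step lay between yellow and silver ovary, where silver was 3.03-fold higher (2.17 to 4.31), and matured ovary was 1.27-fold higher than silver (1.04 to 1.56). Matured ovary was higher than yellow ovary in both copies, by 4.95-fold in g5987 (4.19 to 5.89) and by 3.86-fold in g1927 (2.78 to 5.47).

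The balance of the andr copies can be read within each library, where no scaling between libraries enters. Reads per base of g5987 were 3.43 times those of g1927 in yellow (2.45 to 4.91), 1.56 times in silver (1.30 to 1.88) and 4.40 times in matured ovary (3.80 to 5.11). The ratio was 2.82 times as large in matured as in silver ovary (2.22 to 3.59), and 2.20 times smaller in silver than in yellow ovary (1.49 to 3.30). Between matured and yellow ovary the ratio differed by 1.28 times with an interval that holds 1 (0.869 to 1.86). As a share of the andr reads, g1927 supplied 21.7% in yellow (exact binomial 16.2 to 27.98), 37.9% in silver (33.6 to 42.3) and 17.8% in matured ovary (15.7 to 19.99). Both comparisons past counting error rest on the single silver library.

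Estrogen receptor alpha was at low CPM, but per length its long row esr1 g23190 was not the lowest receptor row in any library. In the matured library it had 2.32 RPKM, beside 2.63 RPKM for esr2 g6324 and 1.06 RPKM for andr g1927. Row esr1 g23190 had 2.48 CPM in yellow, 4.14 CPM in silver and 7.60 CPM in matured ovary. The steps were of like size, 1.67-fold higher in silver than in yellow ovary (1.24 to 2.26) and 1.84-fold higher in matured than in silver ovary (1.502 to 2.25), and neither reached the 2-fold mark after adding 1 CPM. From end to end, matured ovary was 3.06-fold higher than yellow ovary (2.33 to 4.08). The fragment esr1 g19754 had 11, 15 and 12 reads in the yellow, silver and matured libraries, and no pair of libraries could be told apart at this depth.

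The long esr2 copies differed in direction between matured and yellow ovary. The copy g6324 had 1.92 CPM in yellow, 4.88 CPM in silver and 12.4 CPM in matured ovary. It was 2.55-fold higher in silver than in yellow ovary (1.86 to 3.54), 2.55-fold higher in matured than in silver ovary (2.14 to 3.04) and 6.48-fold higher in matured than in yellow ovary (4.84 to 8.85). The copy g9961 had 14.8 CPM in yellow, 12.4 CPM in silver and 10.3 CPM in matured ovary. Silver ovary was 1.19-fold lower than yellow ovary in g9961 (1.04 to 1.37) and matured ovary 1.45-fold lower than yellow ovary (1.25 to 1.68). For matured versus silver it was 1.21-fold lower (1.05 to 1.40) with the scaling used here and 1.04-fold higher with library totals alone, so no direction is given for that step. The fragment esr2 g43197 had 11, 7 and 7 reads in the yellow, silver and matured libraries, and its intervals hold 1 in all 3 comparisons.

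Within libraries the reads per base of esr2 g6324 were 0.0788 times those of g9961 in yellow (0.0577 to 0.106), 0.239 times in silver (0.201 to 0.285) and 0.739 times in matured ovary (0.641 to 0.853). That ratio was 3.04 times as large in silver as in yellow ovary (2.15 to 4.35), 3.08 times as large in matured as in silver ovary (2.46 to 3.88) and 9.36 times as large in matured as in yellow ovary (6.74 to 13.2). The copies of esr2 therefore differed in their change beyond counting error, whatever the scaling. Counted as reads, g6324 supplied 11.2% of the esr2 reads in yellow (exact binomial 8.42 to 14.4), 27.9% in silver (24.5 to 31.5) and 54.3% in matured ovary (50.7 to 57.8). The long esr1 row moved against esr2 g9961 in the same direction, from end to end by 4.43 times (3.24 to 6.11 in matured versus yellow ovary).

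**Figure D2:**
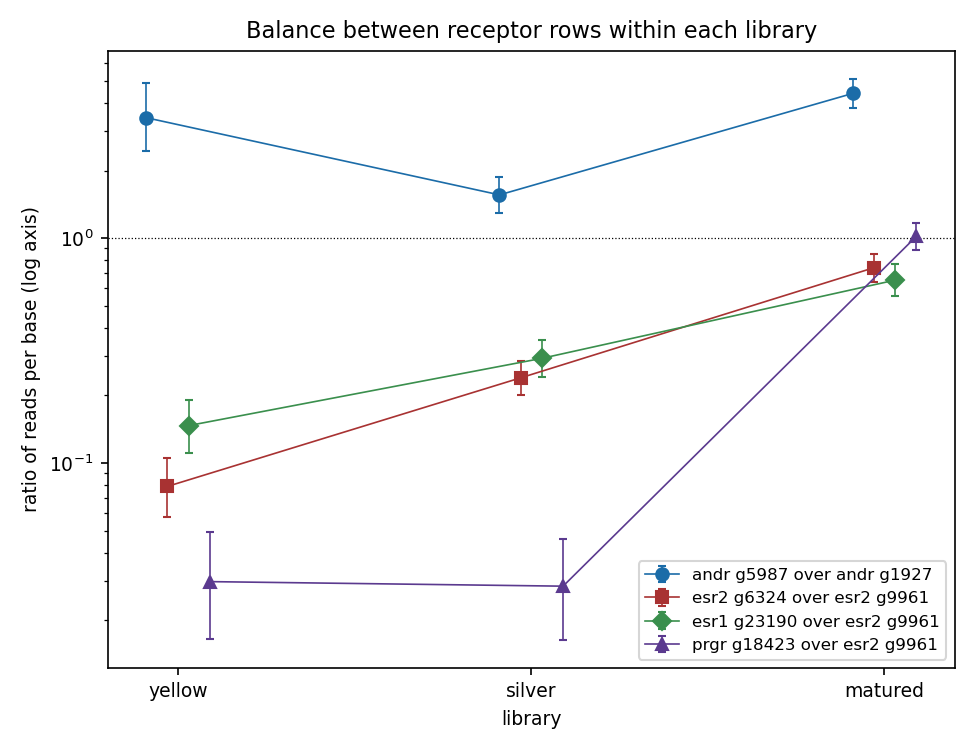
Ratio of reads per base between pairs of receptor rows within the yellow, silver and matured libraries (log axis), with bars for the exact conditional binomial 95% interval; the dotted line marks equal levels. The ratio of prgr to esr2 g9961 is 0.0297 and 0.0284 in the yellow and silver libraries and 1.02 in the matured library, the ratio of esr2 g6324 to g9961 climbs over the 3 stages, and that of the andr copies is lowest in the silver library.

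Per length, the long rows held the same order in the yellow and silver libraries and another order in the matured library. Between yellow and silver only the places of the fragments differed. In the yellow library esr2 g9961 led at 4.29 RPKM, which was 2.23 times the level of the next row, the fragment esr2 g43197 (1.23 to 4.49). Among esr2 g43197, esr1 g19754, andr g5987 (0.782 RPKM) and esr1 g23190 (0.630 RPKM), neighbours in the order did not differ beyond counting error. The last of these exceeded esr2 g6324, at 0.338 RPKM, by 1.86 times (1.27 to 2.74), and from there through andr g1927 at 0.228 RPKM to prgr no neighbours could be told apart. Rows that are not neighbours can still differ. The prgr row had 0.377 times the reads per base of esr2 g6324 in the yellow library (0.197 to 0.681). In the silver library esr2 g9961 led once more at 3.42 RPKM, 3.34 times the level of andr g5987 at 1.02 RPKM (2.89 to 3.87). The rows from andr g5987 down to esr2 g6324 at 0.819 RPKM, 5 in all, lay within counting error of each next one. Row esr2 g6324 exceeded andr g1927, at 0.657 RPKM, by 1.25 times (1.01 to 1.54). The prgr row was far below, since andr g1927 stood 6.77 times higher (4.11 to 11.9).

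In the matured library andr g5987 led at 4.65 RPKM and exceeded prgr by 1.28 times (1.15 to 1.43). The rows prgr and esr2 g9961, at 3.63 and 3.56 RPKM, did not differ beyond counting error (ratio 1.02, 0.885 to 1.17). Row esr2 g9961 exceeded esr2 g6324, at 2.63 RPKM, by 1.35 times (1.17 to 1.56). Next came esr1 g23190 at 2.32 RPKM, within counting error of esr2 g6324 (ratio 1.14, 0.972 to 1.33), and after both fragments andr g1927 closed the order at 1.06 RPKM. Summed over copies, esr2 made up 69.5% of the receptor RPKM in yellow, 57.2% in silver and 36.5% in matured ovary. The share of prgr was 1.36%, 1.09% and 18.05% in the same stages, and that of andr 10.7%, 18.96% and 28.4%. Fragments weigh heavily in such sums because their few reads are divided by a short length, so the shares of esr1 and esr2 are the least certain.

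**Figure D3:**
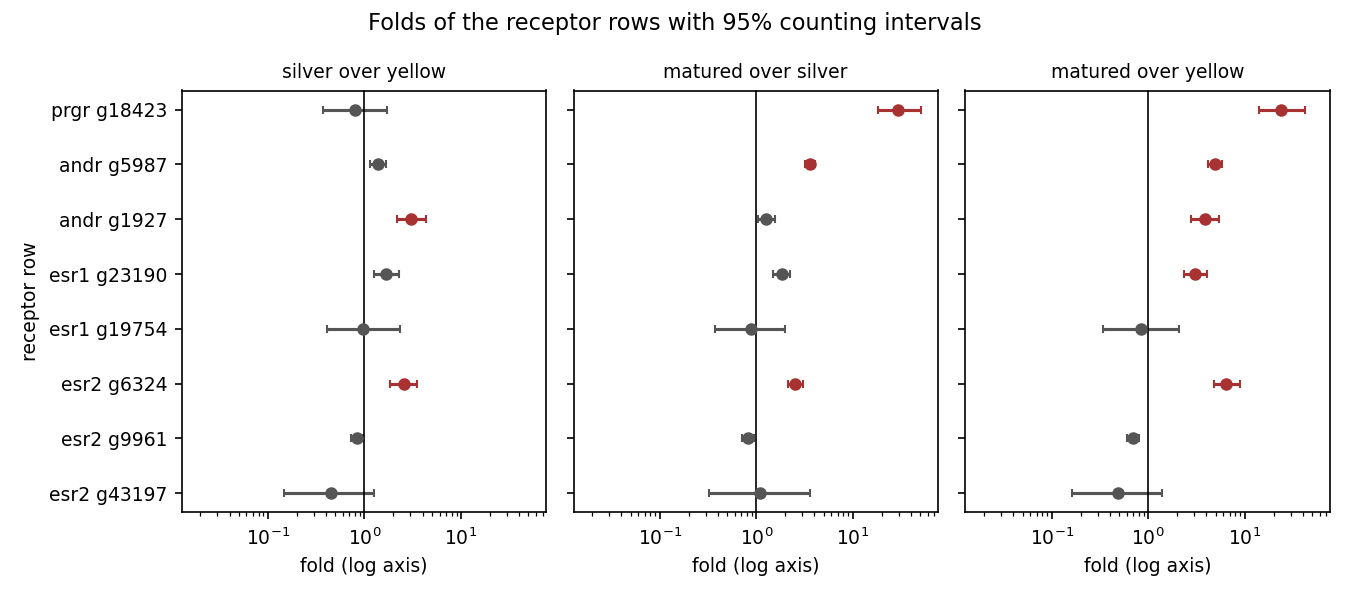
Fold of each receptor row (log axis) in silver over yellow, matured over silver and matured over yellow ovary, 1 eel per stage, with the exact conditional binomial 95% interval; red points are at least 2-fold apart after adding 1 CPM to both libraries. The row prgr is at 0.799, 29.6 and 23.7, and the intervals of the fragments esr1 g19754 and esr2 g43197 hold 1 in each panel.

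The counts of receptor rows past 2-fold were set against those of all genes that reached 1 CPM in either library. In silver versus yellow ovary 5 of the 8 rows were tested, and 2 were at least 2-fold higher (andr g1927 and esr2 g6324) and 0 lower, where 13.7% of 25299 genes were higher and 9.28% lower. The call of esr2 g6324 was lost with library totals alone, and both calls were lost with the authors' RPKM. There 1 RPKM was added to levels below 1 RPKM, which shrinks the ratio. Before anything was added, the fold was at least 2.88 for andr g1927 and 2.42 for esr2 g6324 in every scaling tried. In matured versus silver ovary 6 rows were tested, with prgr tested only through its matured level, and 3 were higher and 0 lower, where 10.8% of 26168 genes were higher and 14.3% lower. With library totals alone that split of all genes turned round, to 4649 higher and 2413 lower, against 2822 higher and 3736 lower here. In matured versus yellow ovary 6 rows were tested, prgr again only through its matured level, and 5 were higher (prgr, both andr rows, esr1 g23190 and esr2 g6324) and 0 lower, where 12.9% of 26377 genes were higher and 11.6% lower (3411 and 3065 genes, against 4824 and 2036 with library totals alone). The call of andr g1927 there was lost with the authors' RPKM after adding 1 RPKM. Its fold before that was at least 3.79 in every scaling tried. At 4-fold, 0 rows were higher in silver versus yellow, 1 in matured versus silver and 3 in matured versus yellow ovary, beside 2.26%, 1.6% and 2.54% of all genes. None of the tested rows was lower at 4-fold, beside 0.933%, 2.58% and 1.55% of all genes in the same comparisons. Long genes as a whole were somewhat higher in the later libraries. Among genes between 3308 and 7313 bases, the lengths of the long receptor rows, 18.3% were higher and 6.03% lower in silver versus yellow, 13.5% and 11.8% in matured versus silver, and 22.1% and 7.28% in matured versus yellow ovary. The part of transcript length in the receptor counts was not tested.

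**Figure D4:**
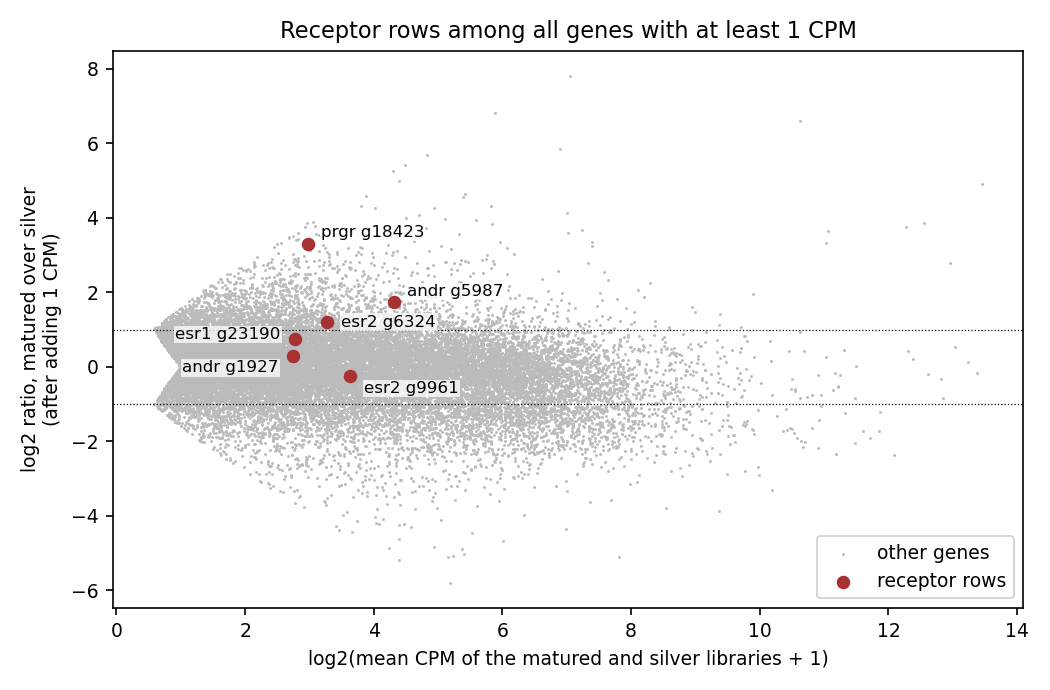
Log2 ratio of matured over silver ovary after adding 1 CPM, against the log2 mean level of the 2 libraries plus 1 CPM, for the 26168 genes that reached 1 CPM in either library (grey) and the 6 receptor rows among them (red); dotted lines mark 2-fold. The row prgr stands at a log2 ratio of 3.31 near the upper edge of genes of its level, with andr g5987 at 1.73 and esr2 g6324 at 1.19, and esr2 g9961 at -0.26 within the bulk.

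Marker lists of several somatic cell types were also highest in matured ovary, and others were not. The granulosa list (16 rows of 7 names, among them foxl2, fshr and the inhibin subunits) summed to 9.66 CPM in yellow, 21.8 CPM in silver and 52.7 CPM in matured ovary. Of these sums, the foxl2 row g429 alone made up 3.65, 11.1 and 25.1 CPM. Its other copy foxl2 g7156 was lower in matured than in silver ovary, at 0.983 against 2.47 CPM. Both cp19a rows were lower there too, within counting error, and fshr (g10501) had 0.752, 0.689 and 1.76 CPM in the 3 libraries. The theca and stroma list (20 rows of 9 names, among them cp17a, type I collagens and lumican) summed to 66.6 CPM in yellow, 148 CPM in silver and 1393 CPM in matured ovary. The immune list (15 rows of 7 names) summed to 55.4, 94.6 and 274 CPM in the same stages. Its row lyg (g4949) alone made up 48.1, 65.7 and 71.5 CPM of the sums. In matured versus silver ovary 6 of 9 tested granulosa rows were at least 2-fold higher. So were 14 of 16 theca and stroma rows and 13 of 14 immune rows. These calls are after adding 1 CPM, and by them 0 rows of these lists were lower. The stromal row pgs1 (g18518) nonetheless had 3.96 CPM in matured and 8.01 CPM in silver ovary. Over all genes 10.8% were higher and 14.3% lower in that comparison. The oocyte list had 1 row higher and 6 lower out of 23, and the smooth muscle list 9 of 16 tested rows higher and 0 lower. The summed smooth muscle level was nonetheless lowest in matured ovary, with 1132 CPM in yellow, 799 CPM in silver and 742 CPM in matured ovary. The single row mylk (g8591) made up 936, 690 and 378 CPM of these sums, so they mainly follow that row. The endothelial list (11 rows of 6 names) summed to 44.8, 43.1 and 34.9 CPM in the yellow, silver and matured libraries. It had 3 of 8 tested rows higher and 1 lower in matured versus silver ovary. The epithelial list (30 rows of 5 names) summed to 783, 1012 and 969 CPM in the yellow, silver and matured libraries. In matured versus silver ovary 8 of its 18 tested rows were higher and 1 lower. Its row cadh1 (g3555) alone made up 467, 823 and 304 CPM of the sums. The cp19a and cp17a rows of the granulosa and theca lists are also in the list of steroid enzymes. Rows with 0 reads in the matured library included 2 granulosa rows (a foxl2 and a sox9 copy) and 1 immune row (a csf1r copy). There were also 3 in the smooth muscle, 6 in the epithelial, 5 in the erythrocyte and 14 in the skeletal muscle list. In matured ovary the summed granulosa level was 2.41 times and the summed theca and stroma level 9.44 times as high as in silver ovary. The part of cell composition in the receptor levels was not tested.

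**Figure D5:**
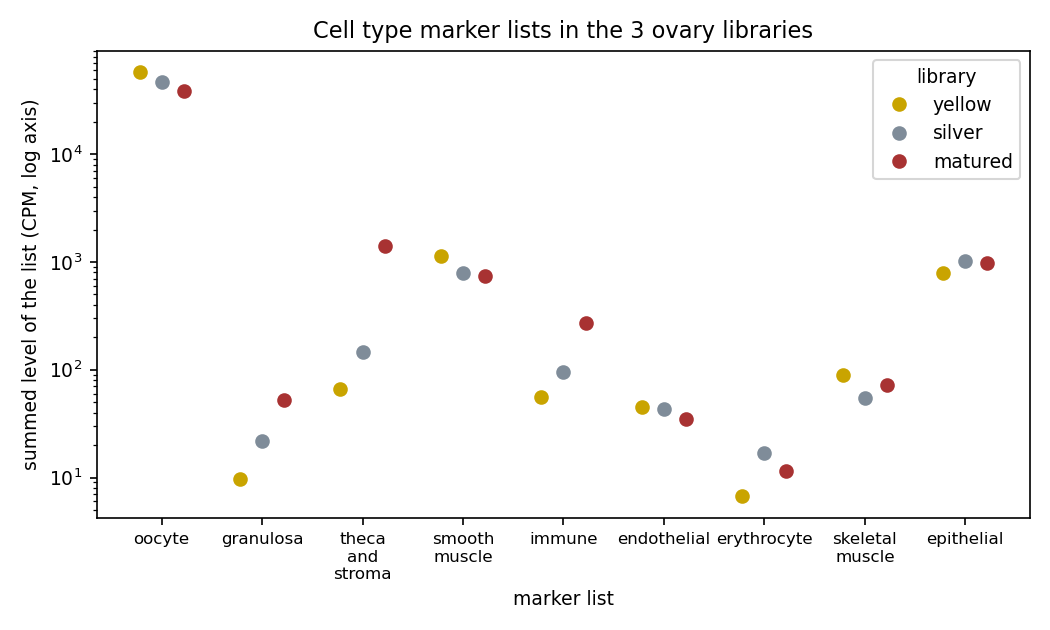
Summed level in CPM (log axis) of 9 lists of cell type marker genes in the yellow, silver and matured libraries, 1 eel each, with 1 point per library. The granulosa, theca and stroma and immune lists are highest in the matured library, at 52.7, 1393 and 274 CPM, and the oocyte list is lowest there at 38994 CPM.

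Of the enzymes that make the ligands, the list had 25 rows of 14 names. Of 18 tested rows 9 were at least 2-fold higher and 1 lower in silver versus yellow ovary (median log2 ratio 0.90, against 0.00 over all genes), and 5 were higher and 4 lower in matured versus silver ovary (median 0.55, against 0.00). Of all genes, 13.7% were higher and 9.28% lower in silver versus yellow, and 10.8% and 14.3% in matured versus silver ovary. All 3 rows of cp17a, the hydroxylase and lyase on the way to androgens, were among the higher in both; its row g22995 was 11.2-fold higher in silver than in yellow ovary (8.84 to 14.3) and 9.71-fold higher in matured than in silver ovary (9.14 to 10.3). Aromatase, cp19a, which turns androgens into the estrogens that esr1 and esr2 bind, was read from 2 rows, neither of which reached 2 CPM in any library. Row g9348 had 0.526 CPM in yellow, 0.928 CPM in silver and 0.751 CPM in matured ovary, and row g9349 had 0.150, 1.43 and 0.954 CPM. The row g9349 was 9.52-fold higher in silver than in yellow ovary, from 54 reads in silver and 4 in yellow, with an interval of 3.51 to 36.2.

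The membrane steroid receptors, which carry fast steroid signals at the cell surface, gave 12 rows of 7 names. Over all genes 10.8% were at least 2-fold higher and 14.3% lower in matured versus silver ovary. Of 7 membrane receptor rows tested in that comparison, 0 were higher and 1 was lower. That row was mprga (g15293), a membrane progestin receptor of the gamma type, with 17.5 CPM in matured and 47.1 CPM in silver ovary, 2.69-fold lower (2.45 to 2.95), and 29.0 CPM in the yellow library. The membrane progestin receptor mprab (g32593) was 2.57-fold lower in silver than in yellow ovary (2.001 to 3.33), at 2.60 against 6.69 CPM. Of the progesterone-binding membrane components, pgrc1 (g24041) had 65.4, 40.4 and 32.6 CPM and pgrc2 (g21758) had 31.9, 51.9 and 55.8 CPM in the yellow, silver and matured libraries. The list's median log2 ratio in matured versus silver ovary was -0.30 with the scaling used here and 0.02 with library totals alone.

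Coregulators and chaperones of the receptors gave 102 and 30 rows. Of 67 tested coregulator rows 3 were at least 2-fold higher and 2 lower in matured versus silver ovary (median log2 ratio 0.38), and of 69 tested rows 3 were higher and 7 lower in silver versus yellow ovary (median -0.32). The SUMO ligase pias2 (g6472), a partner of the androgen receptor, had 37.4 CPM in matured and 12.9 CPM in silver ovary, 2.91-fold higher (2.62 to 3.24). The RNA helicase and coactivator ddx5 (g21039) was 3.14-fold lower in matured than in silver ovary (3.10 to 3.18), at 870 against 2727 CPM, and the ubiquitin ligase rnf4 (g25377) was 3.40-fold lower (3.20 to 3.61). The corepressor nrip1 (g14114) was 3.59-fold higher in silver than in yellow ovary (2.84 to 4.59), and the methyltransferase coactivator carm1 (g17263) 3.13-fold lower (2.95 to 3.33). These counts stand beside 10.8% higher and 14.3% lower of all genes in matured versus silver, and 13.7% higher and 9.28% lower in silver versus yellow ovary. Of 26 tested chaperone rows 3 were higher and 2 lower in matured versus silver ovary, among them the heat shock protein hs90a (g12072), 4.50-fold higher (3.70 to 5.50), and the co-chaperone stip1 (g32206), 3.45-fold higher (2.61 to 4.62), while hsp7c (g1628) was 2.37-fold lower (2.33 to 2.42). In silver versus yellow ovary 3 chaperone rows were higher and 7 lower, with h90a1 (g2585) 5.75-fold lower (3.97 to 8.53) and stip1 (g32002) 3.10-fold lower (2.83 to 3.39).

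Genes known as targets of the progesterone receptor, mostly from mouse follicles near ovulation, are given as 43 rows of 17 names. Of 24 tested rows 4 were at least 2-fold higher and 2 lower in matured versus silver ovary (median log2 ratio 0.12), and 3 were higher and 4 lower in silver versus yellow ovary (median -0.37). Over all genes the shares were 10.8% higher and 14.3% lower in matured versus silver and 13.7% higher and 9.28% lower in silver versus yellow ovary, and with so few rows nothing is read from the difference. The lipid-sensing receptor pparg (g9), itself a nuclear receptor, had 13.9 CPM in matured and 1.86 CPM in silver ovary, 7.50-fold higher (5.83 to 9.79). Prostaglandin synthase 2, pgh2 (g8347), which is induced at ovulation in mammals, had 0.694 CPM in matured and 6.07 CPM in silver ovary, 8.75-fold lower (5.74 to 13.95). With 1.32 CPM in yellow ovary, it was 4.62-fold higher in silver than in yellow ovary (3.22 to 6.79). The chemokine receptor cxcr4 (g44825) was 4.02-fold lower in matured than in silver ovary (3.59 to 4.50), and the factor runx1 (g31228) was 4.35-fold lower in silver than in yellow ovary (3.23 to 5.92). For genes known to respond to estrogen the list was short, with 1 of 7 tested rows higher and 1 lower in matured versus silver ovary, both copies of the growth regulator myc, at 2.37-fold higher in g23339 (2.21 to 2.53) and 2.05-fold lower in g3954 (1.94 to 2.15). The protease catd, cathepsin D, was 1.68-fold higher in row g22589 (1.59 to 1.76), and in silver versus yellow ovary myc g23339 was 2.71-fold higher (2.40 to 3.07). The catd row g3475 was 2.45-fold lower in silver than in yellow ovary (2.17 to 2.78), but as few as 6.97% of the reads of g3475 aligned uniquely.

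Genes with the most similar pattern were sought for the 6 long rows among 17244 named genes with at least 3 CPM in a library, by the distance between centred profiles of log2(CPM + 1) over the 3 libraries. Profiles of 3 points hold little information, and likeness between them says nothing of shared control. Adding 1 CPM shrinks differences at low levels, so genes close by this distance can differ widely in fold. Nearest to prgr was the amyloid-like protein aplp2 (g24696, distance 0.031), with 0.827, 0.742 and 15.8 CPM in the yellow, silver and matured libraries. Next came the secreted proteins cbln1 (g21885, 0.065) and edil3 (g12955, 0.065). Their levels in the same libraries were 0.0752, 0.0530 and 8.84 CPM for cbln1 and 0.188, 0.0530 and 9.25 CPM for edil3. The cobalamin carrier tco2 (g19483, 0.018) lay nearest to andr g5987, followed by oxr1 (g6587, 0.041) and the leukocyte protein plek (g4315, 0.052). Row plek had only 0.0376, 0.398 and 3.79 CPM in the yellow, silver and matured libraries, from 1, 15 and 131 reads. Near andr g1927 were the phosphatase ptprg (g2290, 0.033), the adhesion protein ten4 (g10566, 0.047) and jos1 (g18065, 0.053). The closest to esr1 g23190 were the AP-1 factor fosl2 (g23476, 0.012), nup93 (g35449, 0.013) and the ephrin receptor ephb1 (g13755, 0.018). For esr2 g6324 they were the polyamine regulator azin1 (g8679, 0.0063), faim2 (g1275, 0.027) and gga1 (g12677, 0.032), and for esr2 g9961 fem1a (g45296, 0.0096), rbbp6 (g39779, 0.011) and ari4a (g37586, 0.013).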

How the data were processed

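Ovary RNA of 3 eels, 1 per stage, was analysed from the authors' gene table of 45974 genes. Per the file headers, gene models came from Augustus, names from Blast2GO, and read counts from CLC bio. Tools named in the submitters' processing notes, without their role, are HTSeq, TopHat2 2.0.5, SAMtools 0.1.18, DESeq and CASAVA. The build of the genome was not given in the sources used. The authors deposited counts as corrected totals, which take in reads with several alignments, and as unique alignments. The RPKM values were deposited by the authors from those counts and transcript length, and matched them within 0.2% in all but 517 to 618 rows per library and in every receptor row. The authors' fold (a ratio), log2 fold and p-values came from DESeq, run without replicates, with the variance taken over the 3 libraries. The similarity fraction to the best protein hit was deposited too and was not used in a comparison. A line of totals and 1 blank line were left out.

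Library sizes were multiplied by TMM factors (edgeR 4.0.16, R 4.3.3; 0.957 yellow, 0.910 silver, 1.15 matured). Rows that reached 1 CPM in either library were tested and counted as higher or lower at 2-fold after adding 1 CPM to both, which shrinks low genes. Intervals are exact (Clopper-Pearson or conditional odds ratio). Steps were tested on simulated data. Alternatives were DESeq2 1.42.0 size factors, library totals, unique reads, a minimum of 10 CPM or none, a pseudocount of 0.1 CPM, a 4-fold threshold and RPKM. Members and lists were chosen with earlier results of these data known. Named genes were all receptor rows, the 3 nearest genes of each long row, up to 3 (matured versus silver) and 2 (silver versus yellow) rows per list, taken by size of log2 ratio among those of 5 CPM or more, and cp19a. Of 201 list names 137 matched, after 2 names that stand for unrelated proteins in this table (mprd and thrb) were dropped. Python 3.11.15 with scipy 1.17.1 was used.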

Additional observations from a re-analysis of the deposited data

How the results depend on the processing

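No paired analysis was possible because each stage is a single eel. The sign of the fold did not change for any long receptor row in any comparison under DESeq2 size factors, unique reads, library totals or RPKM, except esr2 g9961 in matured versus silver; the fragment esr1 g19754 also changed sign against the matured library. The fold of prgr in matured versus silver lay between 28.6 and 37.4 over these settings. In matured versus silver the median gene stood at a log2 ratio of 0.30 with library totals, against 0.00 as reported. Higher receptor rows numbered, in silver versus yellow, 2 as reported, 1 with library totals and 0 with a 10 CPM minimum, a 4-fold threshold or RPKM; in matured versus silver, 3 as reported and 1 at 4-fold; in matured versus yellow, 5 as reported, 3 with a 10 CPM minimum or at 4-fold and 4 with RPKM, where andr g1927 lost its call. Lower receptor rows were 0 in every setting. Higher genes in all numbered, in silver versus yellow, 3469 as reported, 3060 with library totals, 2318 with a 10 CPM minimum, 572 at 4-fold and 3099 with RPKM. In matured versus silver they were 2822 as reported, 4649 with library totals, 418 at 4-fold and 5666 with RPKM. In matured versus yellow they were 3411 as reported, 1426 with a 10 CPM minimum, 671 at 4-fold and 5283 with RPKM. RPKM left all 8 receptor rows tested in each comparison with matured ovary. The 10 CPM minimum left only 1 receptor row tested in silver versus yellow. There it removed andr g1927 and esr2 g6324, at 5.01 and 4.88 CPM in silver, whatever their fold. In matured versus yellow it left 4 rows tested and removed andr g1927 and esr1 g23190. In matured versus silver, esr1 g23190 joined the higher rows with library totals (4 rows) and esr2 g6324 left them with RPKM (2 rows). In the RPKM setting 1 RPKM was added to both libraries, which shrinks rows of low RPKM. Before anything was added, the fold of esr2 g6324 in matured versus silver was at least 2.46 in every scaling.

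Counts over all genes moved by over 1.5 times as follows. Higher genes became 572 (silver versus yellow), 418 (matured versus silver) and 671 (matured versus yellow) at 4-fold, and lower genes 236, 675 and 410. With a 10 CPM minimum, higher genes became 1212 in matured versus silver and 1426 in matured versus yellow, and lower genes 1386 in silver versus yellow and 1933 in matured versus yellow. A pseudocount of 0.1 CPM gave 3753 lower in silver versus yellow and 4576 higher in matured versus silver. Library totals gave 4649 higher and 2413 lower in matured versus silver and 2036 lower in matured versus yellow. RPKM gave 3577 lower in silver versus yellow, 5666 higher in matured versus silver and 5283 higher in matured versus yellow. The cause was not tested where scaling moved a count; the stricter minimum and threshold pass fewer genes by construction. Depth limits the fragments and prgr before maturation, at 7 to 17 reads. Counts of the gene and marker lists depended on the setting too. Over the alternatives 175 list counts moved, by over 1.5 times or to or from 0, and 593 did not. Of the list medians 162 were marked as moved and 221 were not, so the counts and medians of lists hold for the setting reported.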

Other observations

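Other members of the nuclear receptor superfamily, 111 rows of 48 names, had 8 of 48 tested rows at least 2-fold higher and 5 lower in matured versus silver ovary (median log2 ratio 0.19), beside 10.8% higher and 14.3% lower of all genes. In matured versus yellow ovary 16 of 45 tested rows were higher and 7 lower (median 0.77), beside 12.9% higher and 11.6% lower of all genes. The lipid-sensing receptor pparg (g9) was 7.50-fold higher in matured than in silver ovary (5.83 to 9.79). The orphan receptor hnf4g (g2132) had 3.96 CPM in matured and 34.7 CPM in silver ovary, 8.77-fold lower (7.35 to 10.5), and the retinoic acid receptor rarb (g23582) 18.4 against 94.9 CPM, 5.15-fold lower (4.73 to 5.61). In silver versus yellow ovary 9 of 41 tested rows were higher and 3 lower (median 0.40), beside 13.7% higher and 9.28% lower of all genes. The largest ratios there were of lower rows. Among them nr5a2 (g19817), an orphan receptor that controls steroid enzymes in granulosa cells of mammals, had 17.4 against 99.7 CPM, 5.73-fold lower (5.26 to 6.25). The mineralocorticoid receptor mcr (g11294), a close relative of prgr and andr, had 1.22 CPM in silver and 7.97 CPM in yellow ovary, 6.53-fold lower (4.73 to 9.19), and 2.14 CPM in the matured library.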
